A study of Mus musculus with 3 samples.

Results

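Ribosomal proteins of the cytosolic and the mitochondrial ribosome were followed in RNA-Seq of the mouse hippocampus, through the alternative splicing events in which their genes were counted. Members were taken by symbol alone: gene names that begin with Rpl or Rps and a digit, Rplp or Rpsa for the cytosolic ribosome, and Mrpl or Mrps and a digit for the mitochondrial ribosome, with the Rps6k kinases left out. This gave 92 events of 8727 and 59 genes of 4860. The cytosolic ribosome had 44 events in 31 genes, 17 of the large and 14 of the small subunit. The mitochondrial ribosome had 48 events in 28 genes, 17 of the large and 11 of the small subunit. These 11 include Mrps36 by its symbol, although it is now known as a part of a mitochondrial dehydrogenase complex. All mitochondrial counts and medians below include it. The 3 groups held 1 mouse each, all wild-type C57BL/6J mice aged 10 weeks, which per the methods of the study were males given an injection into the CA1 region of both hippocampi. Each mouse received adeno-associated virus serotype 9 (AAV9), whose transgene encodes EGFP with CUG repeats in its untranslated region. CUG10 + vehicle carried 10 repeats, and CUG300 + vehicle and CUG300 + CWG-cPIP carried 300, the last with CWG-cPIP, a cyclic pyrrole-imidazole polyamide directed at CAG and CTG repeat DNA. The control mouse was thus also injected and infected, no uninjected mouse is among these libraries, and the tissue was the hippocampus as a whole, with infected and uninfected cells together.

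Ribosomes are built from ribosomal RNA and a fixed set of proteins, and a large and a small subunit join on the mRNA. Cytosolic ribosomes translate most of the proteome, while mitochondrial ribosomes translate the few proteins that mitochondrial DNA encodes. All proteins of both ribosomes are encoded in the nucleus. Genes of the cytosolic set are among the most actively transcribed, they are regulated together at translation through a pyrimidine tract at the start of their mRNAs, and their loss causes inherited anaemias.

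For every event, reads that support inclusion and reads that support skipping had been counted, and the inclusion level (percent spliced in, PSI) is the share of inclusion once both counts are scaled to the effective lengths of their forms. Over the 7659 events counted in all 3 libraries, the libraries held 560672 to 609546 counts. The median event had 22 counts in CUG10 + vehicle, 13 in CUG300 + vehicle and 24 in CUG300 + CWG-cPIP, the order in which sets of 3 values are given throughout. Member events were deeper, with a median over the 3 libraries together of 2600 counts in the cytosolic and 181 in the mitochondrial set. The CUG300 + vehicle library stood apart in some of its cell type markers. Summed counts per 1000000 counts (CPM) of the microglia and immune list were 2884 in CUG10 + vehicle, 20078 in CUG300 + vehicle and 5033 in CUG300 + CWG-cPIP. The neuron list had 11336, 3567 and 12237, and the choroid plexus, endothelial and mural list had 828, 71314 and 772. Almost all of the last sum in CUG300 + vehicle was Ttr, the thyroid hormone carrier made by the choroid plexus, at 171, 67703 and 112 CPM. None of the 6 genes listed for hippocampal excitatory neurons had an event, so the tissue could be checked only by the neuron list, of which 7 of 12 genes had one. In bulk tissue, a change in the share of a cell type and a change in the RNA of each cell cannot be told apart.

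Most of the cytosolic exons were included in nearly every read. Skipped exons made up 68 of the 92 events, 33 cytosolic and 35 mitochondrial, and 67 of the 68 had exactly the ends of an exon in GENCODE M21. Each of the 19925 listed events of the series had both forms counted at least once in its pair, so a single stray skipping read was enough to list an exon. In 45 of the 92 events the skipping form had 3 or fewer counts over the 3 libraries. PSI was at least 0.95 in all 3 libraries for 29 of 33 cytosolic skipped exons and 14 of 35 mitochondrial ones. A 151-nt exon of Rps14, a small subunit protein lost in a deletion syndrome with anaemia, had 0 skipping counts of 2803 in CUG10 + vehicle, 3 of 5027 in CUG300 + vehicle and 1 of 1459 in CUG300 + CWG-cPIP. A 188-nt exon of Rps3, which lines the mRNA entry channel, had 1 skipping count of 8271 in all. The deepest exons of Rps29, Rpl11, Rpsa, Rpl32, Rpl13a and Rps26 and the 76-nt exon of Rpl27a had PSI between 0.994 and 1.0 in every library. In the mitochondrial set, the deepest exons of Mrpl52 (65 nt), Mrpl12 (187 nt), Mrpl18 (232 nt), Mrpl42 (167 nt), Mrps23 (171 nt) and Mrpl33 (19 nt) had PSI between 0.955 and 1.0, each on 4 or fewer skipping counts in all.

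The small exons of Rps24 differed from this. Rps24, a small subunit protein whose gene is mutated in some inherited anaemias (ENSMUSG00000025290.17, chromosome 14, 24487125 to 24496959, plus strand, mm10), has an 18-nt exon (24494052 to 24494069) and a 20-nt exon (24495430 to 24495449) before its last exon, and the small exons are known to be spliced differently among tissues. They decide where translation stops. In GENCODE M21, transcripts with the 20-nt exon alone have 130 codons and stop at its first 3 bases. Transcripts with both small exons have 131 codons, and the stop codon lies inside the 18-nt exon. With both skipped, 3 codons are read from the last exon and the coding length is 133 codons. The 3 spliced ends are shown because the event with the smallest p among the members concerns them. Each line gives the last 12 bases of the shared exon (chr14:24493482-24493493, plus strand) and the 18 bases that follow in the mRNA, with the stop codon in capitals, from the GENCODE M21 transcripts of mm10.
Rps24 20-nt exon included: gctggcaaaaagTGAgtggagattggatac
Rps24 18-nt and 20-nt exons included: gctggcaaaaagaaaTGAaatacctagcag
Rps24 both small exons skipped: gctggcaaaaagccaaaggagTAGatctgc

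Inclusion of the 20-nt exon of Rps24 was lower in CUG300 + vehicle than in both other libraries. CUG10 + vehicle had 468 inclusion and 32 skipping counts, a PSI of 0.920 (95% Clopper-Pearson interval 0.889 to 0.945). CUG300 + vehicle had 1096 and 242, a PSI of 0.781 (0.756 to 0.804). CUG300 + CWG-cPIP had 239 and 14, a PSI of 0.931 (0.887 to 0.961). The interval of CUG300 + vehicle did not overlap the other two, which overlapped each other. Between CUG300 + vehicle and CUG10 + vehicle the PSI difference was -0.139 (Newcombe interval -0.173 to -0.101), with a two-sided Fisher's exact test and Benjamini-Hochberg adjustment at 7.3e-08. Between CUG300 + CWG-cPIP and CUG300 + vehicle it was 0.15 (0.101 to 0.187), adjusted exact p of 8.2e-05, and between CUG300 + CWG-cPIP and CUG10 + vehicle 0.011 (-0.038 to 0.052), adjusted exact p of 1. A call also needed an absolute difference above 0.15, the size used by the study, and the Rps24 exon lay under it in both comparisons it passed by p, in the second only before rounding.

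Both forms of the 20-nt event had more counts in CUG300 + vehicle, the skipping form most. The included form had 768 CPM in CUG10 + vehicle, 1931 in CUG300 + vehicle and 426 in CUG300 + CWG-cPIP. The skipping form had 52.5, 426 and 25 CPM. The ratio of CUG300 + vehicle to CUG10 + vehicle was 2.51 (2.25 to 2.81) for inclusion and 8.12 (5.60 to 12.14) for skipping. The 18-nt exon was rarely included in any library, with a PSI of 0.053 (0.032 to 0.081), 0.019 (0.011 to 0.031) and 0.062 (0.034 to 0.105). Its lower value in CUG300 + vehicle came from 17 inclusion counts, close to the 20 and 13 of the other libraries, beside 691 skipping counts against 289 and 157. Its differences of -0.033 and 0.043 in the comparisons with CUG300 + vehicle had adjusted exact p of 0.995 and 0.514. The microglia and choroid plexus markers given above were also highest in CUG300 + vehicle, and their part in the Rps24 values was not tested.

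**Figure D1:**
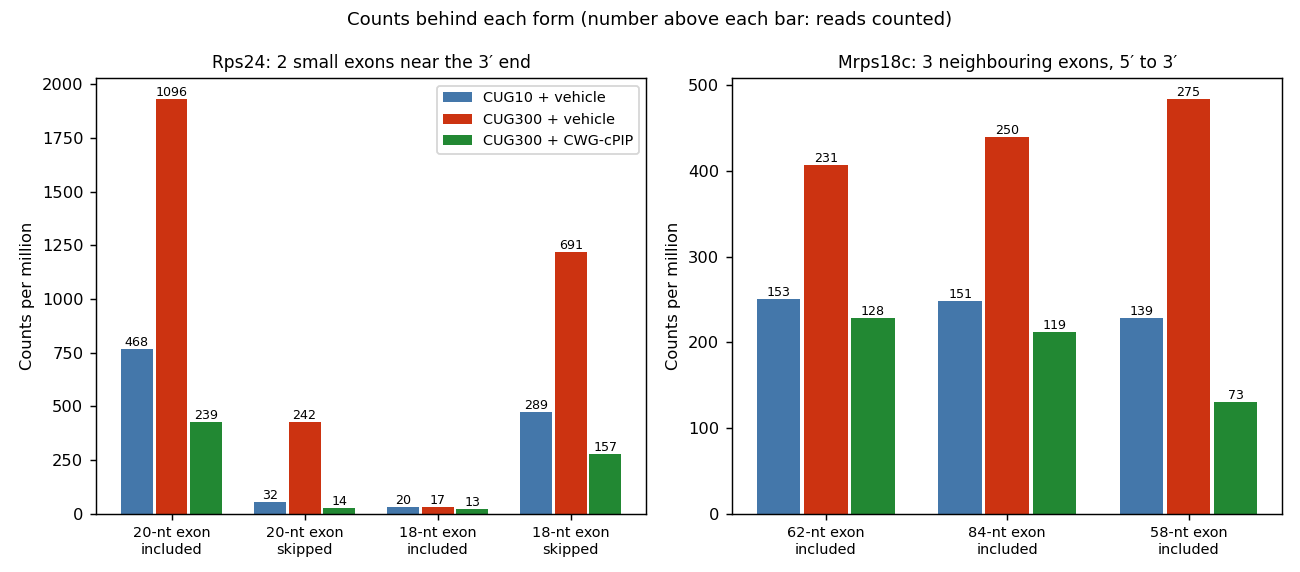
CPM of each form of the 2 small Rps24 exons (left) and of the included form of 3 neighbouring Mrps18c exons (right) in the 3 libraries, 1 mouse each, with the number of reads counted above each bar. Skipping of the 20-nt Rps24 exon stands at 242 counts in CUG300 + vehicle against 32 and 14, and the 58-nt Mrps18c exon at 73 counts in CUG300 + CWG-cPIP against 119 and 128 for the exons before it.

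Setting CUG300 + vehicle against CUG10 + vehicle asks what goes with the expanded repeat. Of 88 ribosomal events listed in it, 0 were called by the adjusted Fisher's exact test with the size threshold, beside 0.16% of all listed events. Without the size threshold 2 passed, the Rps24 exon and a pair of Rpl27a exons, beside 0.303% of all events. At an unadjusted exact p below 0.05 there were 5, beside 2.75%. Between CUG300 + CWG-cPIP and CUG300 + vehicle, which asks what the compound changes in mice with the long repeat, 1 of 82 was called, beside 0.389%, 3 passed by p alone, beside 0.539%, and 6 had an unadjusted exact p below 0.05, beside 3.58%. Between CUG300 + CWG-cPIP and CUG10 + vehicle 0 of 69 were called, beside 0.115%, 0 passed by adjusted p at any size, beside 0.229%, and 4 had an unadjusted exact p below 0.05, beside 2.25%. Every one of these counts was 6 or fewer, and the member events had more counts behind them than most events tested. With 1 mouse per group the test compares the reads of 2 libraries, not the conditions, and no difference has a replicate check.

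The event called was a pair of exons of Mrps18c, one of the mitochondrial small subunit proteins of the bS18 family (ENSMUSG00000016833.14, chromosome 5, 100798627 to 100804471, plus strand). It was listed as mutually exclusive, an 84-nt exon (100801908 to 100801991) or a 58-nt exon (100803053 to 100803110). Counts for the 84-nt and the 58-nt exon were 88 and 79 in CUG10 + vehicle, 129 and 158 in CUG300 + vehicle, and 76 and 30 in CUG300 + CWG-cPIP. The PSI of the 84-nt exon was 0.482 (0.404 to 0.561), 0.406 (0.349 to 0.464) and 0.679 (0.578 to 0.770), highest with CWG-cPIP. The difference between CUG300 + CWG-cPIP and CUG300 + vehicle was 0.274 (0.161 to 0.374), and its adjusted exact p was 1.1e-04. From CUG10 + vehicle the treated library differed by 0.197 (0.074 to 0.309), but the event is not listed for that pair and was not tested there.

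The same exons were not exclusive of each other. As skipped exons, the 84-nt exon had a PSI of 0.992 to 1.0 and the 58-nt exon 0.953 to 1.0 over the 3 libraries, on 1 and 3 skipping counts in all. Reads that join the 2 exons are not counted in a mutually exclusive event. A lower bound on them is the excess of the inclusion count of the 84-nt exon as a skipped exon over its count in the pair, which was 63 in CUG10 + vehicle, 121 in CUG300 + vehicle and 43 in CUG300 + CWG-cPIP. The joined sequence is shown because reads across it are left out of the event. It has the last 15 bases of the 84-nt exon in lower case and the first 15 of the 58-nt exon in capitals, from GENCODE M21 (mm10, chr5:100801977-100803067, plus strand, spliced).
Mrps18c junction of the 84-nt and 58-nt exons: tacaagaatgtgcagCTTTTGTCCCAGTTT

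The difference within the pair went with unequal read counts of exons that were nearly always included. Inclusion counts of the 62-nt exon before the pair (100799552 to 100799613) were 153, 231 and 128, those of the 84-nt exon 151, 250 and 119, and those of the 58-nt exon 139, 275 and 73. The last exon thus had the fewest counts of the 3 in CUG300 + CWG-cPIP and in CUG10 + vehicle, and the most in CUG300 + vehicle. Its CPM ratio of CUG300 + CWG-cPIP to CUG300 + vehicle was 0.27 (0.20 to 0.35), against 0.48 (0.38 to 0.60) for the 84-nt and 0.56 (0.45 to 0.70) for the 62-nt exon. The other listed Mrps18c pair, of the 62-nt and 84-nt exons, had a PSI of 0.534, 0.502 and 0.579 and was not called, with adjusted exact p of 1 and 0.703.

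All 5 pairs of mutually exclusive exons among the members were of this kind, since each of their exons had a PSI of 0.908 or more as a skipped exon. Rpl27a, a large subunit protein, had a pair of 76 nt and 175 nt with 605 and 431, 832 and 778, and 509 and 369 counts. Its PSI was 0.700 (0.673 to 0.725), 0.640 (0.617 to 0.662) and 0.696 (0.667 to 0.724), lowest in CUG300 + vehicle and without overlap with the other libraries. The differences of -0.060 (-0.094 to -0.025) and 0.056 (0.020 to 0.092) had adjusted exact p of 0.0338 and 0.0425, both far under the size threshold. Rps9, a small subunit protein at the mRNA entry side, had a pair with a PSI of 0.510, 0.508 and 0.466 on 6385 counts. Its intervals of 0.487 to 0.534, 0.491 to 0.526 and 0.438 to 0.495 overlapped in every comparison, and its smallest adjusted exact p was 0.125. Mrpl48, of the mitochondrial large subunit, had a pair whose 86-nt exon was at 0.501 (0.432 to 0.568), 0.395 (0.319 to 0.473) and 0.457 (0.375 to 0.538), with an adjusted exact p of 0.437 for the difference of -0.106 between CUG300 + vehicle and CUG10 + vehicle.

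Among the other cytosolic events, those with a PSI near 0.1 or above included 2 retained introns of Rps27a and Rpl31 and a 5′ splice site of Rpl38, and none of them passed the adjusted test. Rps27a encodes ubiquitin fused to a small subunit protein. Retention of its 95-nt intron on chromosome 11 (29547746 to 29547840) was 0.162 (0.128 to 0.202), 0.102 (0.077 to 0.132) and 0.095 (0.069 to 0.126), highest in CUG10 + vehicle. The differences of the other libraries from CUG10 + vehicle were -0.060 (-0.106 to -0.016) and -0.067 (-0.113 to -0.023), with adjusted exact p of 0.349 and 0.578. Rpl31, a large subunit protein at the exit of the peptide tunnel, kept a 214-nt intron at 0.120 (0.084 to 0.166), 0.121 (0.085 to 0.168) and 0.055 (0.032 to 0.088). This was lowest with CWG-cPIP, with overlapping intervals. The differences of CUG300 + CWG-cPIP from CUG300 + vehicle and from CUG10 + vehicle were -0.066 (-0.115 to -0.020) and -0.065 (-0.114 to -0.019). Both intervals lay below 0, with adjusted exact p of 0.151 and 0.578. The longer form of the Rpl31 5′ splice site (A5SS) event of 72 nt, which shares reads with this intron, was at 0.089, 0.095 and 0.046. The last 142 nt of the same intron, listed as an event of their own, had a PSI of 0.507, 0.513 and 0.493. Their inclusion counts of 42, 40 and 17 were close to the 44, 44 and 19 of the 214-nt event. Their skipping counts were only 14, 13 and 6, so the 2 events are not separate introns or separate measurements. No Rpl31 event passed, with adjusted exact p between 0.151 and 1. Rpl31 also has 24 named pseudogenes in GENCODE M21, so reads could be assigned to a copy.

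Rpl38, a large subunit protein needed for normal patterning of the axial skeleton, had a 17-nt longer form at an alternative 5′ splice site (chromosome 11, 114668610 to 114668626) that GENCODE M21 does not hold. Its inclusion and skipping counts were 69 and 115 in CUG10 + vehicle, 68 and 161 in CUG300 + vehicle and 32 and 94 in CUG300 + CWG-cPIP. The PSI was 0.328 (0.263 to 0.399), 0.256 (0.203 to 0.314) and 0.217 (0.152 to 0.295), and the intervals of neighbouring values overlapped. The difference of -0.111 (-0.202 to -0.014) between CUG300 + CWG-cPIP and CUG10 + vehicle had an unadjusted exact p of 0.0269 and an adjusted one of 1. At the low end, a 229-nt extension of Rps27 was used at 0.003, 0.003 and 0.004 on 2992 counts, and a 20-nt extension in Rpl22 at 0.005, 0.013 and 0.021. A 154-nt exon of Rpl22, a protein that also regulates the splicing of its own paralog, had 0.012, 0.013 and 0.029, with overlapping intervals in the 3 libraries.

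Of the mitochondrial events, 4 that follow were short extensions at 3′ splice sites (A3SS), where neighbouring acceptors add or omit a few bases. They are shown because their alternative bases can be read off whole. Each line is a stretch of mRNA from GENCODE M21 on mm10, with the bases that the longer form adds in capitals, and each addition ends in AG, the acceptor dinucleotide of the shorter form.
Mrpl55 3-nt A3SS extension: ctcccacgctaagCAGggcctacgtcgggg
Mrpl55 21-nt A3SS extension: ttagTGCCTGCACGTCTGTCCGTAGcctgc
Mrps36 6-nt A3SS extension: ctaaactcagtgCCTCAGaagctttggggt
Mrps10 3-nt A3SS extension: gtggcctcgcgctCAGtgccagtatgaagt

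The 3-nt extension of Mrpl55 (chr11:59204172-59204174, plus strand), a mitochondrial large subunit protein, lies upstream of the annotated coding sequence. It was used at 0.606 (0.460 to 0.739) in CUG10 + vehicle, 0.572 (0.412 to 0.722) in CUG300 + vehicle and 0.543 (0.374 to 0.706) in CUG300 + CWG-cPIP. The 21-nt extension (chr11:59204535-59204555) is coding and was used at 0.253 (0.153 to 0.381), 0.273 (0.151 to 0.429) and 0.246 (0.136 to 0.391). Neither differed between any 2 libraries beyond the counting error, with a Newcombe interval of the difference between CUG300 + vehicle and CUG10 + vehicle of -0.226 to 0.158 for the first and -0.143 to 0.191 for the second. The 6-nt extension of Mrps36 (chr13:100739196-100739201, minus strand), which despite its name is now known as a part of a mitochondrial dehydrogenase complex, was at 0.843, 0.920 and 0.862. The 3-nt extension of Mrps10 (chr17:47372573-47372575, plus strand) had only 19 counts in all, so its PSI of 0.107, 0.325 and 0.706 had wide intervals, of which that of CUG300 + vehicle ran from 0.008 to 0.902. Its difference of 0.599 (0.121 to 0.825) between CUG300 + CWG-cPIP and CUG10 + vehicle had an unadjusted exact p of 0.035 and an adjusted one of 1.

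Among mitochondrial skipped exons, an 81-nt exon of Mrpl30 in the untranslated region (chromosome 1, 37892943 to 37893023) was included at 0.737 (0.612 to 0.842), 0.656 (0.548 to 0.758) and 0.573 (0.427 to 0.718), lowest with CWG-cPIP, and the difference of -0.163 (-0.332 to 0.014) from CUG10 + vehicle had an adjusted exact p of 1. Exons of Mrpl13 (94 nt) and Mrpl27 (132 nt) had PSI of 0.839 to 0.905 and 0.798 to 0.932. The longer form, by 116 nt, of a 5′ splice site event of Mrps33 was used at 0.771 (0.628 to 0.884), 0.829 (0.734 to 0.903) and 0.863 (0.747 to 0.941). The longer form, by 95 nt, of a 5′ splice site event of Mrps23 was rare, at 0.022, 0.071 and 0.050. The longer form of the Mrpl15 A3SS event was at 1.0, 0.772 and 0.810, but on 0, 3 and 1 counts of the shorter form. Neither the Mrps33 nor the Mrpl15 event reached an unadjusted exact p below 0.05 in any comparison.

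**Figure D2:**
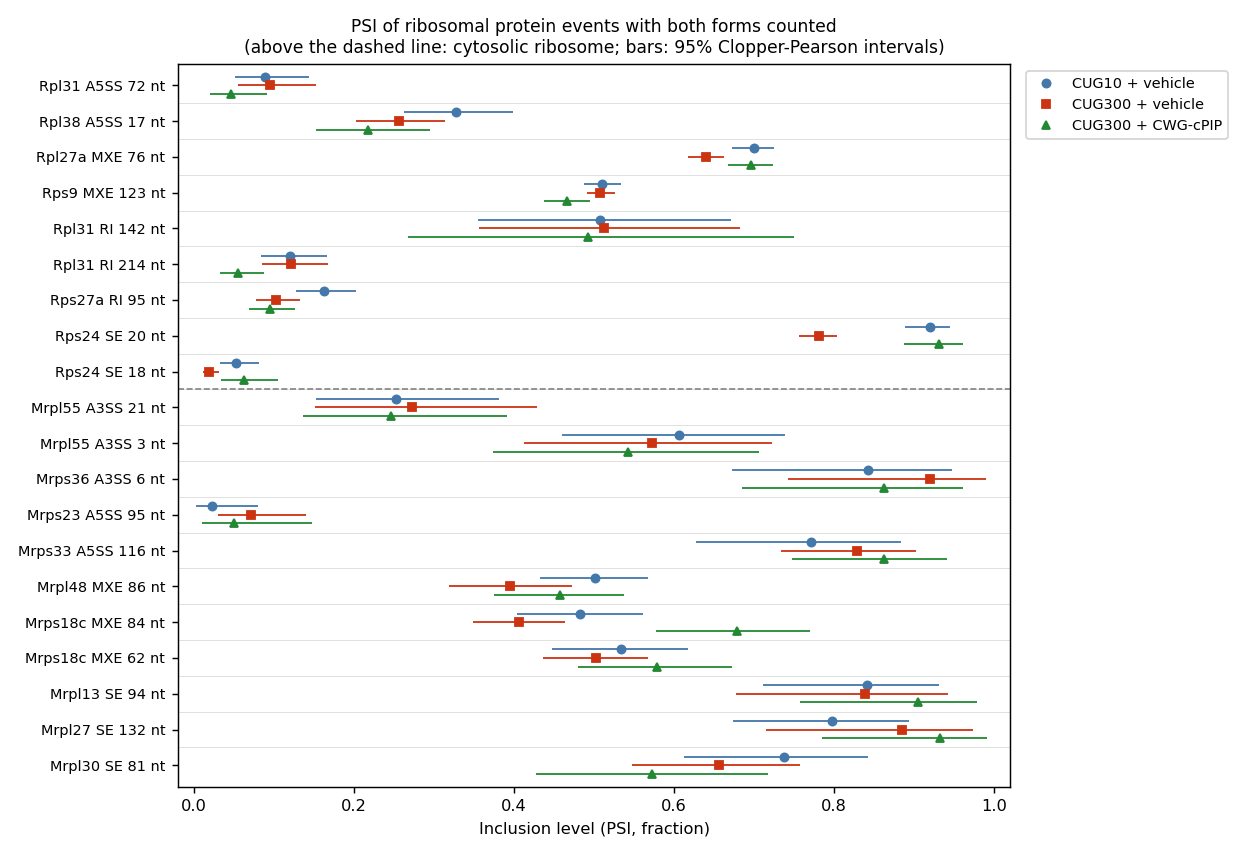
PSI (0 to 1) in the 3 libraries of 20 ribosomal events with 20 or more counts per library, and at least 10 counts of each form over the 3 libraries, without those at 0.95 or more, or at 0.05 or less, in all 3, named by gene, event type and length of the alternative part, with 95% Clopper-Pearson intervals. The CUG300 + vehicle point lies clear of the other two for the 20-nt Rps24 exon (0.781 against 0.920 and 0.931), and the CUG300 + CWG-cPIP point for the 84-nt Mrps18c pair (0.679 against 0.482 and 0.406).

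The PSI of the cytosolic set varied little between libraries. Over events with 20 or more counts in both libraries compared, the median absolute difference was 0.00286 over 42 cytosolic events between CUG300 + vehicle and CUG10 + vehicle, 0.0398 over 41 mitochondrial events and 0.0414 over all 2526. Between CUG300 + CWG-cPIP and CUG300 + vehicle the medians were 0.0043, 0.0356 and 0.0432, and between CUG300 + CWG-cPIP and CUG10 + vehicle 0.00409, 0.0488 and 0.0468. The cytosolic medians were thus small and the mitochondrial ones near those of all events. No test was made of these medians, and an exon included in all its mRNAs has little room to differ. Cytosolic events were also deeper than mitochondrial ones, with a median of 2600 against 181 counts over the 3 libraries. Counting error is smaller in deeper events.

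The counts themselves differed far more than the inclusion levels. Inclusion and skipping counts of all events of a gene were summed per library and given as CPM over the 7659 events. These gene totals depend on how many events a gene has and are not per length, so they are compared between libraries and not between genes. Where a gene has several overlapping events, as Rps9, Rpl27a, Mrps18c and Mrpl48 do, some reads enter its total more than once and its interval is too narrow. The same can hold for Rps24, whose small exons are neighbours. All 59 genes had at least 60 counts over the 3 libraries, as had 2653 of 4402 genes in all. Cytosolic ribosomal proteins took 6.03% of all counts in CUG10 + vehicle, 10.8% in CUG300 + vehicle and 4.7% in CUG300 + CWG-cPIP. Mitochondrial ones took 0.693%, 0.856% and 0.582%. Of the 31 cytosolic genes, 28 had their highest CPM in CUG300 + vehicle, while 22.1% of all genes had. The order CUG300 + vehicle, CUG10 + vehicle, CUG300 + CWG-cPIP from high to low held for 25 of the 31 and for 10 of 28 mitochondrial genes, beside 15.5% of all genes.

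**Figure D3:**
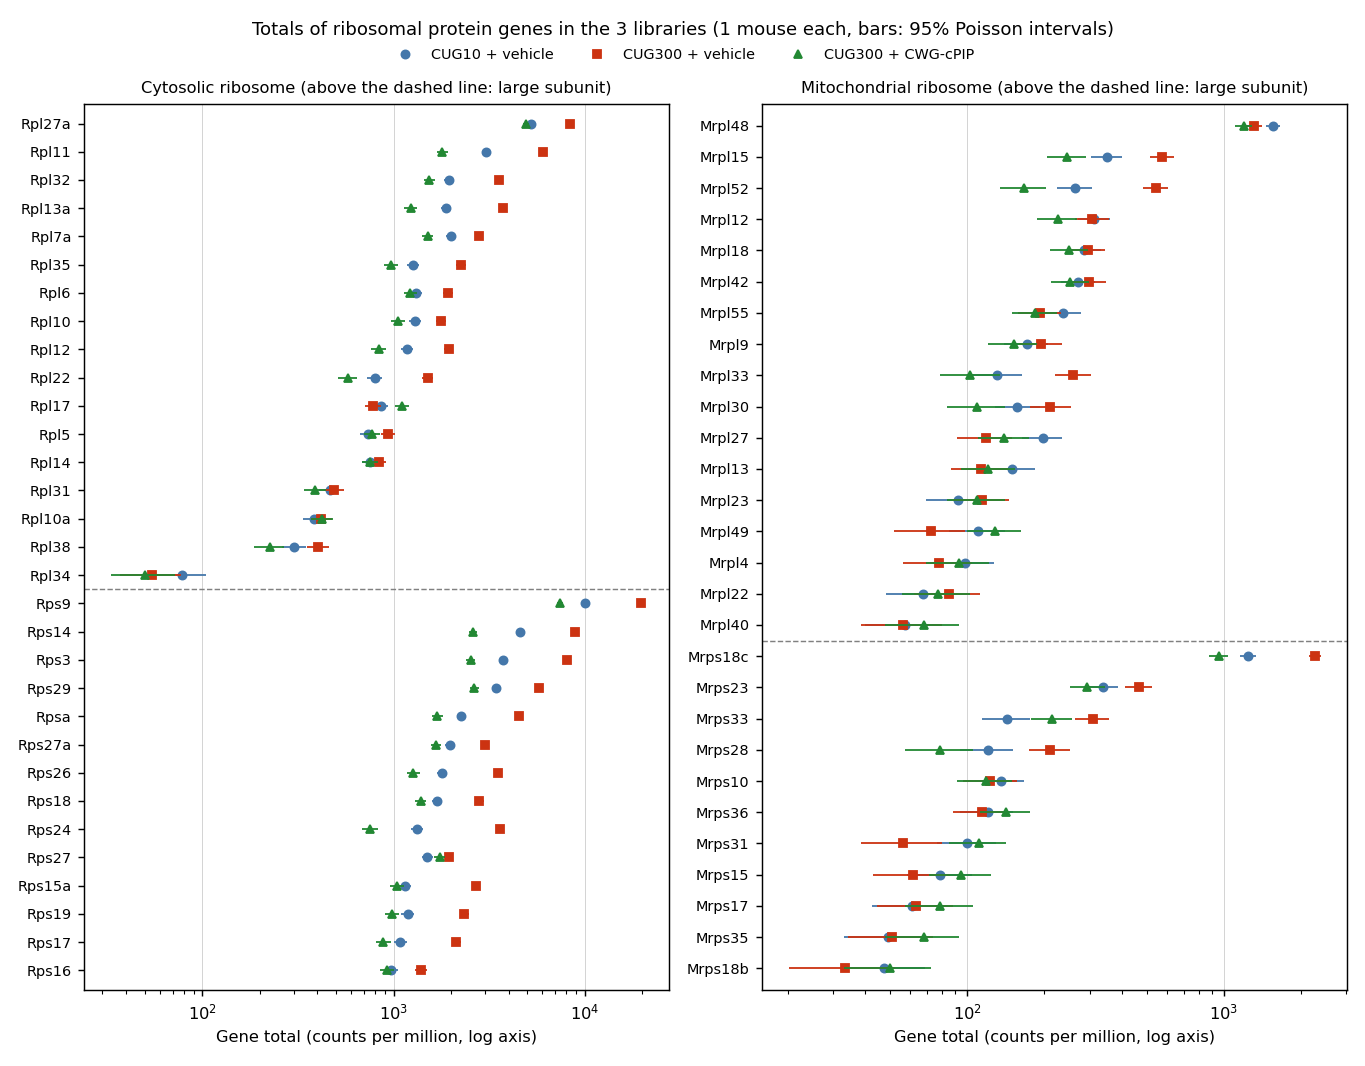
Gene totals in CPM (log axis) of the 31 cytosolic (left) and 28 mitochondrial (right) ribosomal protein genes in the 3 libraries, 1 mouse each, with 95% Poisson intervals, large subunit above and small subunit below the dashed line. In 28 of 31 cytosolic genes the CUG300 + vehicle point lies furthest right, against 13 of 28 mitochondrial genes.

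Between CUG300 + vehicle and CUG10 + vehicle, the small subunit of the cytosolic ribosome differed most. Rps24 had 1327 CPM in CUG10 + vehicle, 3604 in CUG300 + vehicle and 754 in CUG300 + CWG-cPIP, and its ratio of 2.72 (2.50 to 2.95) was the highest of the 59. Over its 2 neighbouring events, which can share reads, the ratio ran from 2.46 to 2.87. Rps15a had 1148, 2700 and 1045 CPM, a ratio of 2.35 (2.15 to 2.58). Rps3 had 3732, 8055 and 2538 CPM, a ratio of 2.16 (2.05 to 2.27). In each of the 3 genes the CUG300 + vehicle library was highest and the CUG300 + CWG-cPIP library lowest. Rpsa, which is also known as a laminin receptor, had 2267, 4545 and 1694 CPM, a ratio of 2.00 (1.88 to 2.14). These 4 genes were above 2-fold, beside 4.52% of all genes. All 14 small subunit genes were higher, with a median ratio of 1.96 and a range of 1.29, for Rps27, to 2.72. In the large subunit 15 of 17 were higher, with a median ratio of 1.40, none above 2-fold. Rps15a, Rpsa and Rps19 have 8, 9 and 14 named pseudogenes in GENCODE M21, while Rps3, Rps9, Rps14 and Rpl11 have 0. Reads could have been assigned to such copies or could have come from them. Only pseudogenes whose symbol is that of the gene followed by -ps were counted. Copies under other names were not, so 0 does not mean that a gene has none.

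Most genes with many counts followed the same order. Rps9 had 10065 CPM in CUG10 + vehicle, 19739 in CUG300 + vehicle and 7427 in CUG300 + CWG-cPIP. Its 5 events share reads, so they are not separate measurements of this gene. Rps14 had 4599, 8855 and 2602 CPM. Rpl11, which with Rpl5 forms a particle that can bind the p53 regulator Mdm2 when ribosome assembly fails, had 3037, 6060 and 1801 CPM. Its partner Rpl5 had 737, 934 and 776 CPM, a ratio of only 1.27 (1.12 to 1.44). Rps29 had 3424, 5734 and 2647 CPM, Rpl32 1954, 3581 and 1539, and Rpl27a 5237, 8346 and 4948. Rps19, the gene most often mutated in Diamond-Blackfan anaemia, had 1184, 2345 and 981 CPM, and it was named after its values were seen. Only Rpl17 and Rpl34 were lower in CUG300 + vehicle than in CUG10 + vehicle, at ratios of 0.90 (0.79 to 1.03) and 0.69 (0.43 to 1.11), whose intervals include 1. Rpl14, Rpl31 and Rpl10a had ratios of 1.11, 1.06 and 1.09 with intervals that include 1.

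On this scale the mitochondrial genes were split between higher and lower. Their median ratio between CUG300 + vehicle and CUG10 + vehicle was 1.04, against 1.66 for the cytosolic ribosome and 0.72 for all genes, with 15 genes higher and 13 lower. The ratio's interval lay above 1 for 8 of the 28 and for 26 of the 31 cytosolic genes, beside 13.3% of all genes, and below 1 for 4 and 0, beside 46.9%. The highest were Mrps33, at 143, 308 and 214 CPM and a ratio of 2.16 (1.66 to 2.83), and Mrpl52, at 262, 543 and 166 CPM and 2.07 (1.70 to 2.52). Mrps18c had 1237, 2258 and 956 CPM, a ratio of 1.83 (1.67 to 2.00) which over its 5 overlapping events ran from 1.59 to 2.13. Mrpl15 had 349, 574 and 244 CPM, Mrps23 338, 465 and 294, Mrpl33 131, 259 and 103, and Mrps28 120, 210 and 78.5. All 4 were highest in CUG300 + vehicle and lowest with CWG-cPIP. On the other side, Mrpl48 had 1554, 1311 and 1195 CPM, a ratio of 0.84 (0.77 to 0.93) which over its 7 overlapping events ran from 0.66 to 1.01. Mrps31 had 100, 56.4 and 111 CPM, a ratio of 0.56 (0.36 to 0.88). Mrpl12, which also binds the mitochondrial RNA polymerase, was level at 312 and 307 CPM, as were Mrpl18 at 285 and 296 and Mrpl42 at 271 and 298.

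The median of all genes in this comparison was itself at 0.72, so the choice of scale moves every ratio. With median-of-ratios size factors in place of totals, which set the median of all genes to 1.00, the cytosolic median was 2.31 and the mitochondrial median 1.45. By this scale 30 of 31 cytosolic and 24 of 28 mitochondrial genes were higher, and 20 and 6 were above 2-fold, beside 11% of all genes. The cell type markers were read by totals, where the median of all genes is 0.72. Of the microglia and immune list, 8 of 15 genes had an event. All 7 that passed the count minimum were above 2-fold by totals in this comparison (median ratio 6.84). The 7 neuron markers were all lower by totals (median ratio 0.35). The part of these cells in the ribosomal totals was not tested.

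**Figure D4:**
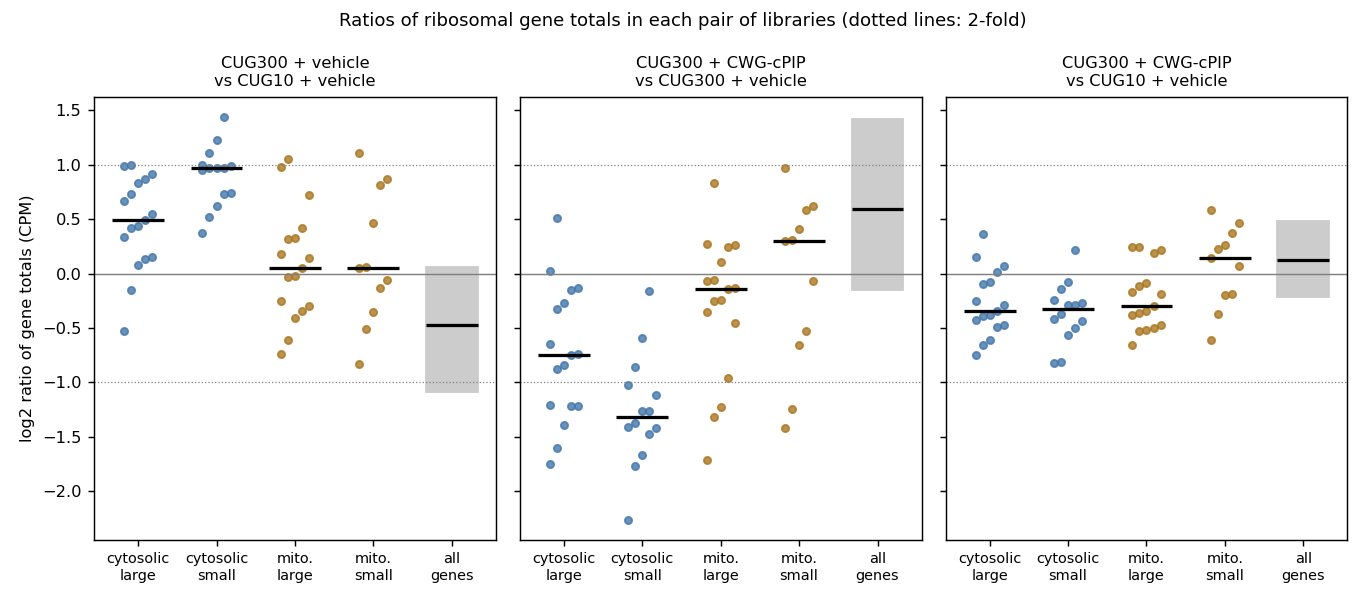
Log2 ratios of gene totals (CPM) in the 3 pairs of libraries for each subunit of both ribosomes, 1 point per gene, with medians as black lines and, for all 2653 genes, the quartiles as a grey box. Cytosolic small subunit genes have a median ratio of 1.96 in the first pair and 0.40 in the second, while the median of all genes is 0.72 and 1.51.

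Between CUG300 + CWG-cPIP and CUG300 + vehicle, cytosolic genes were lower in 29 of 31, with a median ratio of 0.46, while the median of all genes was 1.51. By size factors the cytosolic median was 0.31, with 31 of 31 lower. Ratios were below 0.5 for 17 of the 31 and for 5 of 28 mitochondrial genes, beside 7.31% of all genes, and above 2-fold for 0 of the 59, beside 36.4%. The interval lay below 1 for 27 cytosolic and 9 mitochondrial genes, beside 16.7%, and above 1 for 1 and 2, beside 52.1%. The small subunit, with a median of 0.40 and 11 of 14 below 0.5, was further from 1 than the large subunit, with 0.59 and 6 of 17. It is no independent repeat of the subunit difference in the comparison above, since the CUG300 + vehicle library enters both ratios. Rps24 had the lowest ratio, 0.21 (0.19 to 0.23). Rps14 at 0.29 (0.28 to 0.31), Rpl11 at 0.30 (0.28 to 0.32), Rps3 at 0.32 (0.30 to 0.33), Rpl13a at 0.33 (0.30 to 0.36) and Rps9 at 0.38 (0.36 to 0.39) were also low. Rpl13a, which is also known to repress the translation of inflammatory mRNAs when it leaves the ribosome, had 1882, 3743 and 1231 CPM. Rpl17 was the only cytosolic gene whose interval lay above 1, at 1.42 (1.26 to 1.61), with 863, 779 and 1109 CPM and 11 named pseudogenes.

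In the mitochondrial set the median ratio was 0.93, with 17 genes lower and 11 higher, and by size factors 0.62, with 25 lower and 3 higher. The 5 genes below 0.5 were Mrpl52 at 0.31 (0.24 to 0.39), Mrps28 at 0.37 (0.26 to 0.53), Mrpl33 at 0.40 (0.29 to 0.54), Mrps18c at 0.42 (0.38 to 0.47) and Mrpl15 at 0.43 (0.35 to 0.52). All 5 had ratios of 1.64 or more between CUG300 + vehicle and CUG10 + vehicle. This follows in part from the shared library, since CUG300 + vehicle enters both ratios. Mrps31 and Mrpl49 had the highest ratios, 1.96 (1.26 to 3.11) and 1.78 (1.20 to 2.68).

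CUG300 + CWG-cPIP against CUG10 + vehicle leaves out the library that stood apart. Here 0 of 59 ribosomal genes were past 2-fold, beside 7.8% of all genes in either direction and 6.82% above it. Cytosolic genes were lower in 26 of 31, with a median ratio of 0.79 against 1.09 for all genes. The interval lay below 1 for 21 of the 31 and for 8 of 28 mitochondrial genes, beside 14.6% of all genes. The lowest were Rps24 and Rps14, both at 0.57 with intervals of 0.50 to 0.64 and 0.53 to 0.60, and Rpl11 at 0.59 (0.55 to 0.64). Rps27, at 1.16 (1.06 to 1.27), and Rpl17, at 1.29 (1.14 to 1.45), were the cytosolic genes with an interval above 1. Large and small subunit had the same median of 0.79 here. The mitochondrial median was 0.88, at 0.81 for the large and 1.10 for the small subunit, with Mrps33 highest at 1.5 (1.13 to 2.00). Microglia and immune markers still had a median ratio of 1.84 and neuron markers 1.19, while the choroid plexus, endothelial and mural sum was near that of CUG10 + vehicle.

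Ribosomal proteins whose symbols fall outside the name rule, and the factors that build ribosomes, were read in the same way, beside the all-gene medians of 0.72, 1.51 and 1.09 in the 3 comparisons. Of 10 such protein genes 4 had an event. Fau, a ubiquitin-like fusion that releases a cytosolic small subunit protein, had 274, 331 and 358 CPM, a ratio of 1.21 (0.98 to 1.5) between CUG300 + vehicle and CUG10 + vehicle. Dap3, a GTP-binding protein of the mitochondrial small subunit, had 1052, 1113 and 904 CPM. Ptcd3, of the same subunit, had 62.3, 40.5 and 87.4 CPM, and Ict1, a mitochondrial large subunit protein with peptide release activity, had 60.7, 52.8 and 62.4. The first 2 were thus higher and the last 2 lower in CUG300 + vehicle than in CUG10 + vehicle, with intervals that include 1. Over 24 genes of cytosolic ribosome biogenesis with the count minimum, of 120 listed, the median ratio was 0.92, with 8 higher and 16 lower, 5 of them below 0.5. Over 10 of 41 genes of mitochondrial ribosome assembly and translation it was 1.04, with 5 higher and 5 lower. In the other comparisons, in the order used above, the biogenesis medians were 1.11, with 6 genes above 2-fold, and 1.11, with 3, and the mitochondrial assembly medians 1.09 and 1.02. Of their listed events, 6 to 10 of the first list, 37 to 45 of the second and 20 to 29 of the third, 0 were called in any comparison by the adjusted exact test, beside the 0.16%, 0.389% and 0.115% of all events given above. Lists of this size would hold few or no calls at those shares.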

How the data were processed

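Hippocampal RNA of 3 mice, 1 per group, was sequenced by the authors from directional libraries of total RNA. The submitters' processing notes name Trim Galore 0.6.6, STAR 2.7.9a and RSEM 1.3.3, and mm10 as the build. The authors compared 2 libraries at a time with rMATS and deposited 15 tables, 1 per event type and pair, with inclusion and skipping counts of junction and exon reads. They also deposited the PSI as a fraction and form lengths in nt. How reads that map to several places were treated is not given in the sources used here. The p-values, FDR and PSI differences deposited by the authors hold their own comparisons and were not used. The skipping length of 74 nt implies a read length other than that in the methods, which was not resolved.

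Counts of a library were identical between tables in 14737 of 14737 comparisons, and recomputed PSI deviated by at most 0.0005. Members, gene lists and tests were chosen with earlier results of these data known. Events were tested with a two-sided Fisher's exact test on counts (scipy 1.17.1) with Benjamini-Hochberg adjustment within each event type of a pair, and called at an adjusted p below 0.05 and an absolute PSI difference above 0.15. Named items were called events, the deepest 10 events of each ribosome, the deepest 2 of each other type, genes farthest past 2-fold or with the most counts, and listed genes outside the name rule, and all others were chosen after their values were seen. Alternatives were other thresholds, count minimums, event sets, adjustment and median-of-ratios size factors. Gene totals needed 60 counts over the 3 libraries, and their ratios have exact conditional binomial intervals. Intervals cover counting error only, since reads and not molecules were counted. The tests were run on simulated counts without variation between mice, with changes larger than the thresholds and PSI changes in deep events only. This does not show how they behave on shallow events or between mice. Coordinates are 1-based on mm10 and sequences come from GENCODE M21 transcripts.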

Additional observations from a re-analysis of the deposited data

How the results depend on the processing

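Of 57 alternatives over 12 results, 42 left the median within its counting error or the count within 1.5 times, 15 did not, and no median changed sign. A median was taken as moved when it shifted by more than the median half-width of its genes' log2 intervals. Median-of-ratios size factors moved the cytosolic median log2 ratio from 0.73 to 1.21 and the mitochondrial one from 0.05 to 0.53 between CUG300 + vehicle and CUG10 + vehicle, and from -1.12 to -1.71 and from -0.10 to -0.70 between CUG300 + CWG-cPIP and CUG300 + vehicle, since the median of all genes is then 0. They raised the ribosomal genes past 2-fold in the first comparison from 6 to 26, all of them higher. By this scale 11% of all genes were above 2-fold and 13.3% below 0.5. By totals these shares were 4.52% and 27.9%. At 1.5-fold in either direction, 28, 34 and 7 ribosomal genes were counted in the 3 comparisons in the order of the report. At 2-fold there were 6, 22 and 0, beside 32.4%, 43.7% and 7.8% of all genes. At both folds the share of all genes was above that of the 59 ribosomal genes in every comparison. Of the 6 in the first comparison, 3 had an interval wholly past 2-fold. Events listed in all 3 pairs alone, which cover fewer genes, gave 14 in place of 22. All 14 were lower. Here too, with both directions pooled, the share of all genes past 2-fold was above that of the ribosomal genes. A PSI threshold of 0.1 gave 1 event in the first comparison and 2 in the second, against 0 and 1. Over all events it gave 14 of 6263 and 28 of 6679. No size threshold gave 2 and 3 ribosomal events, beside 19 and 36 over all events. An unadjusted exact p below 0.05 with the size threshold gave 1 event of 69, of Mrps10, in the third comparison, against 0. Over all events this setting gave 107 of 6983. Changing the adjustment family, requiring 20 counts in each library, taking the deepest event of each gene or dropping the count minimum moved none of these results. No paired analysis was possible because each group held 1 mouse and the labels number no replicates. For the same reason no replicate could be left out. With 1 library per group, the mouse, the dissection and the treatment cannot be told apart, and the shallow depth of mitochondrial events limits the PSI differences they can show.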
